A study of Mus musculus with 20 samples.

Results

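Ovaries of Figla knockout mice were compared between the day of birth (P0) and embryonic day 18.5 (E18.5), to describe which perinatal changes of gene expression took place without Figla. The knockouts were chosen by the library name that each count table carries: 3 libraries from P0 and 4 from E18.5, which made 7 of the 20 libraries of the series and, after 1 pair was merged, 6 of 18 samples. The tissue was the whole ovary of B6D2F1 mice, and RNA was selected for messenger RNA and sequenced from fragmented cDNA. The genotype field of the labels reads Figla-/- for knockouts and Figla+/- for controls, but it follows the titles, and the titles contradict the library names for 3 of the 7 knockout libraries: P0 replicate 1 and E18.5 replicates 1 and 2 are titled as controls. Likewise 3 of the 7 control libraries, P0 replicate 3 and E18.5 replicates 3 and 4, are titled as knockouts. Figla control ovaries of the same ages, 3 samples from P0 and 3 from E18.5, served for comparison. Whether the ovaries were pooled, and whether replicates came from separate animals or litters, is not given in the labels, so p-values speak for the spread among these libraries only, and part of that spread may be technical.

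FIGLA is a basic helix-loop-helix protein of oocytes that binds E-box DNA as a partner of E proteins and switches on genes of the egg coat and other genes of the growing oocyte. Around birth, mouse oocytes leave the pachytene stage of meiosis, the nests in which they are joined break down, and pregranulosa cells enclose single oocytes as primordial follicles. In mice without Figla, primordial follicles do not form and oocytes are lost soon after birth. The ovary of this age also holds stromal, vascular, mesothelial and blood cells, all of which were sampled with the oocytes.

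The knockout libraries held 10163849 to 12367760 counts at P0 and 6437737 to 10410503 at E18.5. For E18.5 replicates 1 and 2, chi-square over degrees of freedom was 1.32 in knockouts and 1.12 in controls, against 6.62 to 62.3 for all other pairs of replicates within a Figla group. Each of these near-identical pairs was summed and is called replicate 1-2. Figla itself (ENSMUSG00000030001, GRCm38 chromosome 6, 86016171 to 86020996) stood at 0.183, 0.639 and 0.301 CPM in P0 knockouts, against 0.846, 1.22 and 1.5 in E18.5 knockouts, in CPM, counts divided by each library's TMM-scaled total. It stood at 32.9, 37.3 and 43.2 in P0 controls, against 22, 3.65 and 25.8 in E18.5 controls, so every library named as a knockout, those titled as controls included, lay below every control. Figla had 13 counts over the P0 knockouts and 36 over the E18.5 knockouts and was too low for the test between ages. Whether these reads lie in the deleted part of the gene is not given in the labels. E18.5 samples stood apart in 2 ways that were shared by both genotypes. Replicate 1-2 carried high immediate early and heat shock transcripts, and replicate 3 carried few transcripts of the oocyte factors Lhx8 and Sohlh1, as described with these genes. The counts over all genes are given with and without E18.5 knockout replicate 3, as are many but not all lists and genes. Values without replicate 1-2 are added for some. Control log2 fold changes and list medians keep all control samples.

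Red blood cell and cell cycle genes were mostly lower at P0 than at E18.5 in knockouts, and genes of the piRNA pathway and several other germ cell genes were mostly higher. Of the 16 listed neutrophil genes 6 were lower as well. Such genes could pass the filter on low counts through the E18.5 samples alone, so that count supports nothing beyond their values. No single gene passed the threshold. Of 17121 genes tested, 0 had an adjusted p under 0.05 by edgeR's quasi-likelihood test with Benjamini-Hochberg adjustment (0% called), 869 had an unadjusted p under 0.05 and were higher at P0 (5.08%), and 1317 were lower (7.69%). DESeq2 called 106 genes higher (0.619%) and 265 lower (1.55%). All 3 P0 samples lay above all 3 E18.5 samples for 2053 genes (12%) and below them for 1460 (8.53%). Without E18.5 replicate 3, edgeR again called 0 of 17777 genes, with 859 higher (4.83%) and 1569 lower (8.83%) at an unadjusted p under 0.05, and DESeq2 called 56 higher (0.315%) and 230 lower (1.29%). Without E18.5 replicate 1-2, edgeR called 34 of 17331 genes higher (0.196%) and 386 lower (2.23%), and without E18.5 replicate 4 it called 10 of 17742 higher and 0 lower. The median log2 fold change of all genes was -0.02.

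The 10 genes with the smallest p among those lower at P0 in every sample included regulators of mRNA tails, the cell cycle and haem synthesis. Pabpc4 (ENSMUSG00000011257, chromosome 4, 123262351 to 123298925), a cytoplasmic poly(A)-binding protein, stood at 50.7, 49.1 and 48.3 CPM in P0 knockouts, against 98.3, 103 and 104 in E18.5 knockouts. The P0 values lay within a few CPM of each other and well below those of E18.5, and the log2 fold change was -1.08 (SE 0.11) with an adjusted p of 0.0845 by edgeR. Trib3 (ENSMUSG00000032715, chromosome 2, 152337422 to 152344032), a pseudokinase whose transcript is raised by the amino acid stress factor ATF4, stood at 2.38, 1.76 and 1.5 CPM in P0 knockouts, against 9.51, 12.3 and 13.1 in E18.5 knockouts. Its log2 fold change was -2.65 (SE 0.28), with the same adjusted p of 0.0845, and -2.59 without E18.5 replicate 3. Cpeb4, which binds mRNAs and controls their tails, stood at 41.7, 45.7 and 41.6 CPM in P0 knockouts, against 78.5, 84.3 and 97.5 in E18.5 knockouts. Its groups did not overlap, and its log2 fold change was -1.05 (SE 0.14). Pcna, the sliding clamp of DNA replication, stood at 35.8, 32.7 and 34.9 CPM in P0 knockouts, against 60.9, 61.2 and 65.4 in E18.5 knockouts, and Ccne1, the cyclin that drives entry into S phase, stood at 11.1, 12 and 10.1 CPM in P0 knockouts, against 20.2, 24.6 and 26.1 in E18.5 knockouts. Both had every P0 sample below every E18.5 sample, with log2 fold changes of -0.89 and -1.12.

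Members of haem synthesis stood beside them. Ppox, which makes protoporphyrin in the mitochondrion, stood at 47.9, 58.2 and 48.4 CPM in P0 knockouts, against 118, 103 and 162 in E18.5 knockouts, a log2 fold change of -1.35 (SE 0.19). Slc25a38, the carrier that brings glycine into mitochondria for the first step of that pathway, stood at 25.6, 28.4 and 28.8 CPM in P0 knockouts, against 49.2, 48.8 and 57.9 in E18.5 knockouts. In both, the E18.5 replicate 4 value was the highest. The other genes of this group were Slc25a21, a mitochondrial carrier of oxodicarboxylates, Usp45, a ubiquitin protease, and Fam213a, a peroxiredoxin-like protein, with log2 fold changes of -2.0, -0.91 and -0.96. The 10 genes ran from -2.65 to -0.89, and adjusted p ran from 0.0845 to 0.186. In controls their log2 fold changes ran from -0.88 to 0.11, and 2 of the 10 had an unadjusted p under 0.05. DESeq2 called 10 of the 10 with and without E18.5 replicate 3. The genes had been picked by their p in these same samples, so those calls give no separate support.

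The 10 genes with the smallest p among those higher at P0 in every sample were led by Dmrta2 (ENSMUSG00000047143, chromosome 4, 109978053 to 109983687), a transcription factor of the DM-domain family. It stood at 20.0, 15.6 and 17.3 CPM in P0 knockouts, against 7.52, 5.17 and 7.78 in E18.5 knockouts, and at 32.7, 19.8 and 31.9 in P0 controls, against 12.2, 4.65 and 15.3 in E18.5 controls. The log2 fold change was 1.32 (SE 0.21) in knockouts and 1.33 in controls. Tex11, an X-linked gene needed for crossovers in mouse spermatocytes, stood at 63.9, 68 and 79.9 CPM in P0 knockouts, against 35.1, 39.7 and 40.3 in E18.5 knockouts. Tex19.1, which restrains retrotransposons in germ cells, stood at 72.7, 63 and 94.8 CPM in P0 knockouts, against 24.4, 24.8 and 40.7 in E18.5 knockouts. Both sets of P0 values lay clear above the E18.5 values, with log2 fold changes of 0.85 (SE 0.14) and 1.32 (SE 0.25). Tbx18 (ENSMUSG00000032419, chromosome 9, 87702800 to 87731260), a T-box transcription factor of mesenchymal cells, stood at 9.35, 11.3 and 14.1 CPM in P0 knockouts, against 1.94, 1.52 and 4.23 in E18.5 knockouts, a log2 fold change of 2.17 (SE 0.38). Tbx18 stood at 0.596, 0.288 and 0.407 in P0 controls, against 0.688, 1.33 and 0.848 in E18.5 controls, too low for the test between ages there, with every control at or under 1.33 CPM. Cfap54, a protein of cilia and flagella, and Spata5, an ATPase of ribosome assembly, differed by 0.79 and 0.67, and the mitochondrial alanine tRNA mt-Ta by 2.18. The remaining 3 were the uncharacterised genes D730045A05Rik, Gm18336 and Gm4779, with log2 fold changes of 3.26, 1.68 and 0.80. All 10 had an adjusted p of 0.186 by edgeR. Of the 8 that were tested in controls, 7 had an unadjusted p under 0.05 there, with log2 fold changes from 0.42 to 2.63 over the 8. Without E18.5 replicate 3, the log2 fold changes of the 10 in knockouts ran from 0.71 to 3.21.

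**Figure D1:**
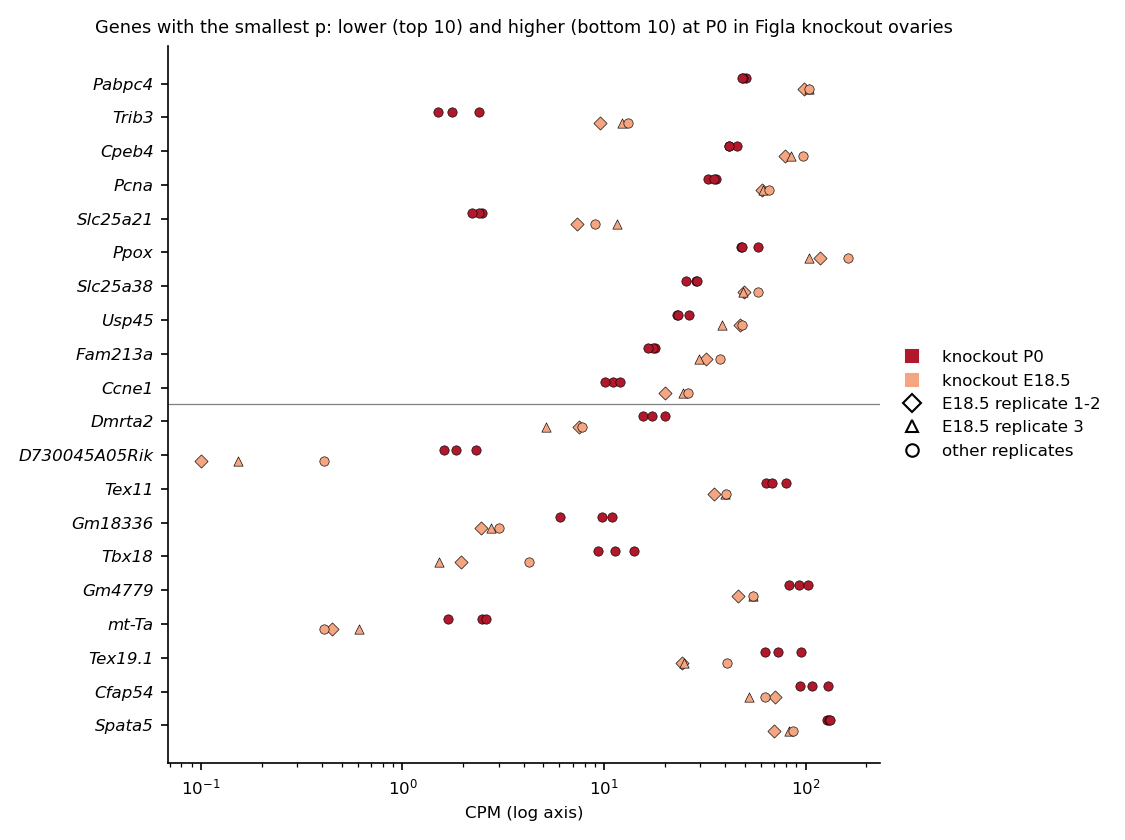
CPM on a log axis of the 10 genes lower (top) and the 10 genes higher (bottom) at P0 with the smallest p, in the 3 P0 samples (dark) and the 3 E18.5 samples (pale) of Figla knockouts; each point is 1 sample. In every gene shown the 2 ages do not overlap, as the naming rule required, and E18.5 replicate 3 (triangle) lies on the same side of P0 as the other E18.5 samples.

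Genes of the piRNA pathway, which makes small RNAs that silence transposons in germ cells, were mostly higher at P0. All 22 listed members were tested, 21 had a positive log2 fold change, and 18 lay above E18.5 in every P0 sample, where 12% of all genes did so. At an unadjusted p under 0.05, 13 were higher and 0 lower, against 5.08% and 7.69% of all genes, and 0 passed edgeR's adjusted test. Their median log2 fold change was 0.58, against -0.02 for all genes, with a range from -0.28 to 1.12. Without E18.5 replicate 3 the median was 0.52, with 16 higher (4.83% of all genes) and 0 lower (8.83%) at an unadjusted p under 0.05. DESeq2 called 5 members higher with all samples (0.619% of all genes), Piwil2, Mov10l1, Mael, Pld6 and Fkbp6. Without replicate 3 it called 1, Fkbp6 (0.315% of all genes). In controls the median was 0.55, with 9 higher (10.7% of all genes) and 0 lower (9.15%) at an unadjusted p under 0.05.

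Mov10l1, the RNA helicase that feeds precursors into the pathway, stood at 348, 323 and 319.8 CPM in P0 knockouts, against 158, 131 and 246 in E18.5 knockouts. Fkbp6, a co-chaperone of PIWI proteins, stood at 117, 103 and 103 CPM in P0 knockouts, against 65.1, 51.1 and 73.7 in E18.5 knockouts. The P0 samples of both were tightly grouped and lay above the E18.5 samples, by 0.85 (SE 0.22) and 0.73 (SE 0.15) on the log2 scale. Pld6, an enzyme of the mitochondrial surface where piRNA precursors are cut, stood at 14.9, 13.3 and 13.7 CPM in P0 knockouts, against 7.61, 5.63 and 8.74 in E18.5 knockouts. Piwil2, a PIWI protein of the fetal germ line, stood at 314, 303 and 312 CPM in P0 knockouts, against 118, 80.2 and 235 in E18.5 knockouts. Its E18.5 values ranged more widely than the gap between the ages, with replicate 3 lowest and replicate 4 highest. Tdrd1, a Tudor scaffold that binds PIWI proteins, stood at 123, 117 and 129 CPM in P0 knockouts, against 40.4, 29.2 and 96 in E18.5 knockouts, with the same order of E18.5 samples. It stood at 481, 509 and 754 in P0 controls, against 242, 27.2 and 326 in E18.5 controls. Asz1, a germ granule protein, stood at 35.1, 36.8 and 32.1 CPM in P0 knockouts, against 21.4, 23.1 and 24.9 in E18.5 knockouts, and its log2 fold change was 0.55 in knockouts and 0.59 in controls.

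RNA-binding proteins and translation factors of the oocyte showed a similar order. Of 17 listed, 14 were tested, 10 lay above E18.5 in every P0 sample (12% of all genes), and 8 were higher (5.08% of all genes) with 0 lower (7.69%) at an unadjusted p under 0.05. Their median log2 fold change was 0.41 with all samples, 0.34 without E18.5 replicate 3, and 0.54 in controls. Dazl, which germ cells need for entry into meiosis, stood at 213, 209 and 230.3 CPM in P0 knockouts, against 164, 136 and 148 in E18.5 knockouts, and at 316, 245 and 343 in P0 controls, against 266, 146 and 197 in E18.5 controls. The log2 fold change was 0.51 (SE 0.11) in knockouts and 0.52 in controls. Mael, which acts in the piRNA pathway, stood at 233, 226 and 209 CPM in P0 knockouts, against 143, 92 and 165 in E18.5 knockouts. Igf2bp3, an mRNA-binding protein of fetal tissues, and Cpeb1, which controls the tails of stored oocyte mRNAs, differed by 0.42 and 0.37, and in each the 2 ages did not overlap. Cdh1, the cadherin that joins oocytes to each other and to somatic cells, stood at 19.8, 14.9 and 21.4 CPM in P0 knockouts, against 9.31, 5.93 and 9.29 in E18.5 knockouts, a log2 fold change of 1.15 (SE 0.23). In bulk ovaries, more cells of a type and more RNA per cell cannot be told apart, and the same holds for fewer cells and less RNA.

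Oocyte transcription factors were split. Lhx8, a LIM homeobox factor of early oocytes, stood at 54.6, 62 and 66.9 CPM in P0 knockouts, against 18.2, 6.39 and 43 in E18.5 knockouts, and Sohlh1, a basic helix-loop-helix factor of the same cells, stood at 89.6, 97.7 and 105 CPM in P0 knockouts, against 37.1, 9.28 and 65.4 in E18.5 knockouts. Each lay above E18.5 in every P0 sample, but the E18.5 samples ranged widely, with replicate 3 at the bottom. The log2 fold changes were 1.40 (SE 0.52) and 1.35 (SE 0.52) with all samples, and 0.99 and 0.90 without replicate 3. Lhx8 stood at 163, 151 and 215 in P0 controls, against 94.7, 5.98 and 115 in E18.5 controls, where replicate 3 was again the lowest. Taf7l, a germ cell form of a general transcription factor subunit, stood at 276, 244 and 279 CPM in P0 knockouts, against 167, 113 and 196 in E18.5 knockouts, a log2 fold change of 0.71 (SE 0.19). Sohlh2, the partner of Sohlh1, stood at 25.5, 21.7 and 24.2 CPM in P0 knockouts, against 19.2, 25.9 and 19.4 in E18.5 knockouts, where the ages overlapped, and at 59.8, 55.6 and 78.4 in P0 controls, against 33.6, 21.1 and 34.5 in E18.5 controls, where they did not. Nobox, a homeobox factor of the oocyte, was at or under 0.304 CPM in all 6 knockout samples, and stood at 152, 171 and 189 in P0 controls, against 74.3, 1.99 and 105 in E18.5 controls. Over the 8 of 13 factors tested in knockouts the median log2 fold change was 0.20. It was 0.26 without E18.5 replicate 3 and 0.02 without replicate 1-2. Over the 11 tested in controls, with the low E18.5 control replicate 3 kept, it was 1.07. The sets tested in knockouts and controls differ in members, so these medians are not like for like.

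The egg coat genes, which growing oocytes switch on, were at or near 0 at both ages in knockouts. Zp2, which encodes a protein of the zona pellucida, had 0 CPM in all 6 knockout samples and stood at 65.3, 77.6 and 157 in P0 controls, against 14.4, 0 and 40.9 in E18.5 controls. Zp1 and Zp3, which encode its partners, were at or under 0.0995 and 0.152 CPM in the 6 knockout samples, against 9.19 to 28.3 and 9.87 to 53.7 in P0 controls. Of 13 egg coat and secreted protein genes 3 were tested in knockouts and 9 in controls, and of 24 maternal effect genes 4 were tested in knockouts and 17 in controls, since the others were too low. Gdf9, a growth factor secreted by oocytes, stood at 1.65, 2.64 and 2.71 CPM in P0 knockouts, against 2.44, 1.83 and 1.64 in E18.5 knockouts, and at 8.94, 14.5 and 25.8 in P0 controls, against 3.21, 1.33 and 5.09 in E18.5 controls. The knockout ages overlapped, and the log2 fold changes were 0.18 (SE 0.33) in knockouts and 2.26 in controls. Dppa3, a maternal chromatin protein, was low but not absent, at 3.67, 3.35 and 4.71 CPM in P0 knockouts, against 0.697, 0 and 2.59 in E18.5 knockouts. It stood at 107, 149.7 and 256 in P0 controls, against 46.9, 0.664 and 66.5 in E18.5 controls, and its log2 fold changes were 1.85 (SE 0.75) in knockouts and 2.10 in controls. Kit, the oocyte receptor for the growth factor encoded by Kitl, stood at 47, 54.6 and 97 CPM in P0 knockouts, against 79, 64.2 and 52.9 in E18.5 knockouts, and at 591, 781 and 1199.7 in P0 controls, against 389.7, 64.3 and 518 in E18.5 controls. Its ages overlapped in knockouts, with a log2 fold change of -0.02 (SE 0.26). Kitl, which somatic cells express, had a log2 fold change of -0.10 (SE 0.15) in knockouts and -0.57 in controls. Uchl1, a ubiquitin hydrolase abundant in oocytes, stood at 223, 201 and 235 CPM in P0 knockouts, against 85.6, 20.7 and 148 in E18.5 knockouts, and at 363, 369 and 645 in P0 controls, against 213, 19.6 and 244 in E18.5 controls. It lay above E18.5 in every P0 sample of either genotype, with replicate 3 lowest in both.

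**Figure D2:**
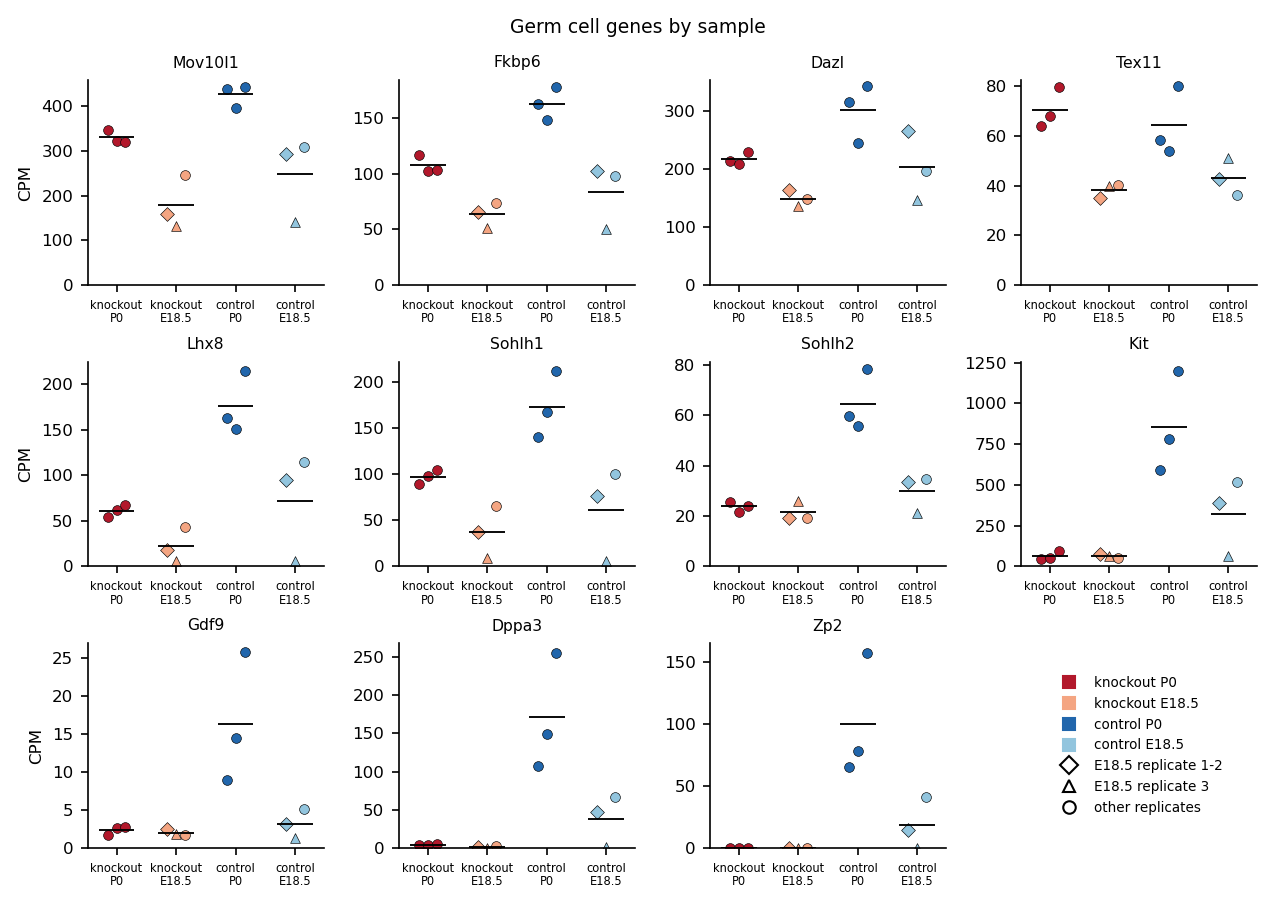
CPM of 11 germ cell genes in each sample of knockouts and controls at P0 and E18.5, on linear axes from 0; points are samples and lines are group means. Mov10l1, Fkbp6, Dazl and Tex11 have all P0 knockouts above all E18.5 knockouts, while Zp2 is at 0 in every knockout and E18.5 replicate 3 is the lowest E18.5 sample of both genotypes for Lhx8 and Sohlh1.

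Meiotic genes were mixed. Over the 28 genes of recombination and crossovers the median log2 fold change was -0.05, with 5 higher and 4 lower at an unadjusted p under 0.05. It was 0.11 without E18.5 replicate 3 and -0.24 without replicate 1-2. Over the 15 of 16 synaptonemal complex and meiotic cohesin genes tested it was 0.08, with 2 higher and 0 lower, and over the 6 of 8 meiotic entry genes it was 0.12, with 1 higher and 0 lower, where 5.08% of all genes were higher and 7.69% lower. For meiotic entry genes it was 0.34 without replicate 3, with 3 higher (4.83% of all genes) and 0 lower (8.83%). The summed level of the entry list was 607, 535 and 539 CPM in P0 knockouts, against 513, 477 and 390.0 in E18.5 knockouts, without overlap (exact permutation two-sided p = 0.1, the smallest possible). Dazl, given above with the RNA-binding proteins, also belongs to this list and made up most of the rise of the sum, so the sum largely repeats that gene. Of 19 pluripotency and early germ cell genes 10 were tested, with a median of 0.16. Among them Sall4, a zinc finger factor of early germ cells, stood at 14.7, 14.5 and 16.6 CPM in P0 knockouts, against 5.87, 3.8 and 12.7 in E18.5 knockouts, a log2 fold change of 1.00 (SE 0.38), and at 9.11, 11.6 and 16.8 in P0 controls, against 2.01, 3.65 and 5.33 in E18.5 controls.

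Most lists of somatic cell markers showed few differences between the ages with all knockout samples, while pregranulosa and granulosa markers showed more. Over the 23 of 24 pregranulosa and granulosa markers tested the median log2 fold change was 0.10, with 5 higher and 1 lower at an unadjusted p under 0.05, where 5.08% of all genes were higher and 7.69% lower. Of these, 6 lay above E18.5 in every P0 sample (12% of all genes), and DESeq2 called 2 higher (0.619%). Without E18.5 replicate 3 the median was 0.16, with 3 higher (4.83% of all genes) and 1 lower (8.83%). Inha, the inhibin alpha subunit, stood at 113, 82.3 and 97.5 CPM in P0 knockouts, against 68.1, 37.4 and 58.7 in E18.5 knockouts, and Nr5a2, a nuclear receptor of granulosa cells, stood at 29.7, 40.7 and 49.9 CPM in P0 knockouts, against 20.6, 8.98 and 25 in E18.5 knockouts. Both lay above E18.5 in every P0 sample, by 0.80 (SE 0.21) and 1.10 (SE 0.34), and E18.5 replicate 3 was the lowest in both. Without it the log2 fold changes were 0.60 and 0.80. Amhr2, the receptor for anti-Mullerian hormone, and Foxo1, a factor regulated by insulin signalling, differed by 0.33 and 0.36 without overlap. Not all members rose. Of the 23 tested, 14 had a positive and 9 a negative log2 fold change, with a range from -1.14 to 1.10. Sertoli, stromal, endothelial, surface epithelium, mesonephric and macrophage lists had medians from -0.10 to 0.22, with at most 1 member of each in either direction at an unadjusted p under 0.05. Without E18.5 replicate 1-2, 6 of 13 surface epithelium markers were higher and 1 lower, where 7.69% of all genes were higher and 9.19% lower, and their median was 0.32, against 0.02 with all samples. Of 7 steroid synthesis genes tested, 3 were higher and 0 lower without that sample, with a median of 0.35, and 1 was higher and 0 lower with all samples, with a median of 0.03.

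Of 28 collagen and basement membrane genes tested, 24 had a positive log2 fold change and 9 lay above E18.5 in every P0 sample, where 12% of all genes did so. At an unadjusted p under 0.05, 2 were higher and 0 lower, a share close to the 5.08% of all genes that were higher. Eln, which encodes elastin, stood at 721, 721 and 705 CPM in P0 knockouts, against 416, 435 and 545 in E18.5 knockouts, and at 487, 598 and 511 in P0 controls, against 298, 336 and 623 in E18.5 controls. The knockout ages did not overlap, with a log2 fold change of 0.58 (SE 0.15). Col15a1, a basement membrane collagen, stood at 94.9, 90.5 and 100.3 CPM in P0 knockouts, against 36.2, 65.4 and 72.5 in E18.5 knockouts, with E18.5 replicate 1-2 lowest. The median of the list was 0.19 in knockouts, 0.24 without E18.5 replicate 3, and -0.17 in controls.

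Red blood cell genes were lower at P0. Of 14 listed members 11 were tested, all 11 had a negative log2 fold change, and 9 lay below E18.5 in every P0 sample (8.53% of all genes). At an unadjusted p under 0.05, 10 were lower and 0 higher, where 7.69% of all genes were lower, and 0 passed edgeR's adjusted test. The median log2 fold change was -1.63 with all samples, -1.55 without E18.5 replicate 3, -1.86 without replicate 1-2 and -0.70 in controls. In controls 1 of the 11 was higher (10.7% of all genes) and 0 lower (9.15%) at an unadjusted p under 0.05. DESeq2 called 1 higher there (2.66% of all genes). The summed level of the list was 406, 1174 and 871 CPM in P0 knockouts, against 1415, 3144 and 3727 in E18.5 knockouts, an exact permutation test giving two-sided p = 0.1, the smallest that 3 samples against 3 allow. P0 replicate 1 was the lowest and E18.5 replicates 3 and 4 the highest. In controls the sums were 364, 639.5 and 1653 at P0, against 1402, 1062 and 1062 at E18.5, and the ages overlapped. DESeq2 called 3 members lower in knockouts, Klf1, Tfrc and Hba-a2 (1.55% of all genes). Without E18.5 replicate 3 it called 1, Tfrc (1.29%), while edgeR called 6 lower without replicate 1-2 (2.23%).

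Klf1 (ENSMUSG00000054191, chromosome 8, 84901928 to 84905291), the master factor of red cell genes, stood at 0.733, 3.75 and 3.21 CPM in P0 knockouts, against 7.52, 48.4 and 59.1 in E18.5 knockouts, a log2 fold change of -3.92 (SE 0.82) and an adjusted p of 0.186 by edgeR. Tfrc, the transferrin receptor that takes up iron, stood at 164, 210.0 and 198 CPM in P0 knockouts, against 283, 504 and 596 in E18.5 knockouts. Neither overlapped between ages, and in both E18.5 replicate 1-2 lay closest to P0. The adult alpha globin gene Hba-a1 stood at 39.4, 141 and 93.9 CPM in P0 knockouts, against 182, 300.1 and 345 in E18.5 knockouts, a log2 fold change of -1.63 (SE 0.44); reads shared between the alpha globin copies may have been split or lost in counting. Alas2, which makes the first compound of haem in red cells, stood at 17.4, 98.5 and 54.6 CPM in P0 knockouts, against 80.9, 222 and 274 in E18.5 knockouts, and Epb42, a protein of the red cell membrane skeleton, at 0.0917, 8.15 and 6.22 CPM in P0 knockouts, against 12.5, 72.1 and 96.6 in E18.5 knockouts. The ages overlapped for Alas2 and not for Epb42, and both were singled out after their values were seen, for their promoters. Genes as low at P0 as Klf1 and Epb42 could pass the filter on low counts through the E18.5 samples alone. The counts of lower red blood cell genes include such members. The embryonic globins Hbb-bh1, Hbb-y and Hba-x were at or under 1.67 CPM in every knockout sample and were not tested.

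The promoters of Alas2 and Epb42 are shown because red cell genes were lower together here and GATA1, the main erythroid factor, binds the letters AGATAA. The windows, from RefSeq on GRCm38.p6, run from 250 bases before to 50 bases after the gene's start and are written along the gene's strand (chrX:150547167-150547466, plus strand, and chr2:121036828-121037127, minus strand). Capitals mark AGATAA or its reverse complement TTATCT.
Alas2: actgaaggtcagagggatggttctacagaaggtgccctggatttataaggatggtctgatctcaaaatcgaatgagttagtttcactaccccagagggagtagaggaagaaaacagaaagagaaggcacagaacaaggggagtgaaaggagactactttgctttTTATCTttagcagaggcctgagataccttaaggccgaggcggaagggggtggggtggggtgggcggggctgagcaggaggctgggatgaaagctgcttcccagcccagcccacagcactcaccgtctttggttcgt
Epb42: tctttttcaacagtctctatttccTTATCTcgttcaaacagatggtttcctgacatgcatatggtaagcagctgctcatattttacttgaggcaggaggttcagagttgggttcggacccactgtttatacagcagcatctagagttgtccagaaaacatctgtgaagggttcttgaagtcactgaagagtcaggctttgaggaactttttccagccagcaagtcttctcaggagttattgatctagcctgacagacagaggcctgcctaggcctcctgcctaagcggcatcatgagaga
The letters were found on either strand in 3 of the 9 tested members that have a promoter in the table, Alas2, Epb42 and Hbb-bs, and in 11.2% of all 32851 promoters. A match is a description of the sequence and does not show binding.

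Several neutrophil genes were far lower at P0. Of 16 neutrophil and inflammation genes 8 were tested. Of these 6, Ngp, Ltf, Camp, Lcn2, S100a8 and S100a9, lay below E18.5 in every P0 sample (8.53% of all genes), with log2 fold changes from -7.02 to -4.43. Ngp (ENSMUSG00000032484, chromosome 9, 110419747 to 110423012), a granule protein of maturing neutrophils, stood at 0.55, 1.92 and 0.602 CPM in P0 knockouts, against 39.9, 13.8 and 351 in E18.5 knockouts. Ltf, the granule protein lactoferrin, stood at 0.183, 1.68 and 0.1 CPM in P0 knockouts, against 30.2, 8.82 and 217 in E18.5 knockouts. E18.5 replicate 4 was far above the other samples in both, and E18.5 replicate 3 was the lowest of its age but still above P0. The log2 fold changes were -7.02 (SE 1.36) and -6.95 (SE 1.41), and -7.55 and -7.47 without replicate 3. Passing the filter on low counts could depend on the E18.5 samples alone for such genes, so their count supports nothing beyond their values. Mpo, an enzyme of early granules, differed from these and stood at 59.9, 16.4 and 17.7 CPM in P0 knockouts, against 0.199, 0.304 and 47.1 in E18.5 knockouts, where the ages overlapped. The summed list stood at 73.7, 35.5 and 26.3 CPM in P0 knockouts, against 256, 42.1 and 1087 in E18.5 knockouts, and overlapped (exact permutation two-sided p = 0.2). DESeq2 called the 6 genes lower with and without E18.5 replicate 3, where 1.55% and 1.29% of all genes were called lower.

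Cell cycle and DNA replication genes were lower at P0 in knockouts. Of 30 tested, 29 had a negative log2 fold change, 13 lay below E18.5 in every P0 sample (8.53% of all genes), and 19 were lower (7.69% of all genes) with 1 higher (5.08%) at an unadjusted p under 0.05. The median log2 fold change was -0.71 with all samples, -0.54 without E18.5 replicate 3, -0.95 without replicate 1-2 and 0.01 in controls. DESeq2 called 12 lower (1.55% of all genes) and 1 higher (0.619%) with all samples. Without replicate 3 it called 3 lower (1.29%) and 0 higher (0.315%), while edgeR called 22 lower without replicate 1-2 (2.23%). Mki67, a protein of the surface of mitotic chromosomes, stood at 149.9, 215 and 209.8 CPM in P0 knockouts, against 293, 768 and 1053 in E18.5 knockouts. Rrm2, a subunit of the enzyme that makes deoxynucleotides, stood at 17.6, 21.4 and 22 CPM in P0 knockouts, against 34.5, 61.8 and 79.5 in E18.5 knockouts. Top2a, the topoisomerase of dividing cells, stood at 111, 149 and 120.2 CPM in P0 knockouts, against 166, 313 and 309 in E18.5 knockouts. In these 3 genes E18.5 replicates 3 and 4 were well above replicate 1-2, the order seen for red blood cell genes, and all 3 samples lay above P0. Whether dividing blood cells carried part of this difference was not tested. Ccnd1, the cyclin of early G1, was the member higher at P0, at 48.2, 46.7 and 54.8 CPM in P0 knockouts, against 20.8, 26.3 and 37.4 in E18.5 knockouts. It stood at 19.8, 19 and 23.1 in P0 controls, against 21.3, 24.2 and 25.7 in E18.5 controls. The summed list stood at 2261, 2494 and 2459.8 CPM in P0 knockouts, against 2683, 3832 and 4349 in E18.5 knockouts (exact permutation two-sided p = 0.1, the smallest possible). In controls it stood at 2520.1, 2473 and 3289.9 at P0, against 3219, 2864 and 2689.8 at E18.5.

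The promoters of Top2a and Mki67 carry the letters TTTGAA, one form of the cell cycle homology region through which cell cycle genes are held down in resting cells. The windows were taken in the same way (chr11:99024140-99024439, minus strand, and chr7:135716330-135716629, minus strand). Capitals mark TTTGAA or its reverse complement TTCAAA.
Top2a: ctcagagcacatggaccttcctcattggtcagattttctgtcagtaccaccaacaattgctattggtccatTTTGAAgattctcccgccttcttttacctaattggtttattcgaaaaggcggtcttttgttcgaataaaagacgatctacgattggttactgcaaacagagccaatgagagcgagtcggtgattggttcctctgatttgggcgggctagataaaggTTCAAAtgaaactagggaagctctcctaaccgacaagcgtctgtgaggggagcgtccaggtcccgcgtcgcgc
Mki67: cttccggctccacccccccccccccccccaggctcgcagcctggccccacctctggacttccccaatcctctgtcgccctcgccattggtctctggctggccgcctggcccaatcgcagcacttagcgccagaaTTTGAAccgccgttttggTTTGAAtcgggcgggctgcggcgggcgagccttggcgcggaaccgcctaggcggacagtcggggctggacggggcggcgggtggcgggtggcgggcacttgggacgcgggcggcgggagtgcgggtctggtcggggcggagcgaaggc
These letters were found on either strand in 12 of the 23 tested members with a promoter in the table and in 17.9% of all promoters. Here too members were counted by any listed promoter and the share by single promoters. Each of the windows printed holds 2 matches.

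**Figure D3:**
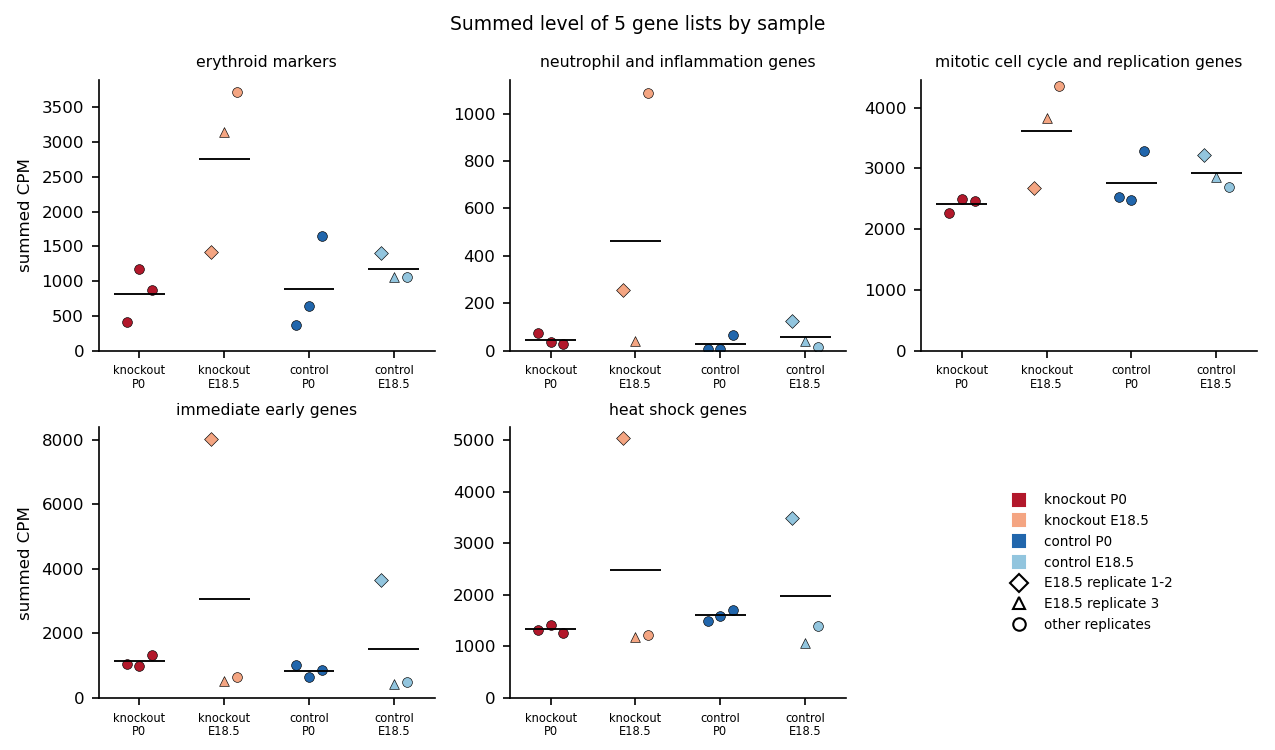
Summed CPM of 5 gene lists in each sample of knockouts and controls at P0 and E18.5, on linear axes from 0; points are samples and lines are group means. Erythroid and cell cycle sums are highest in E18.5 knockout replicates 3 and 4, and immediate early and heat shock sums are highest in E18.5 replicate 1-2 of both genotypes.

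Transcripts of acute stress were set by 1 sample. Fos, an immediate early gene, stood at 30.8, 36.7 and 63.4 CPM in P0 knockouts, against 958, 1.98 and 3.69 in E18.5 knockouts, and at 50.9, 15 and 43.3 in P0 controls, against 448, 2.99 and 2.42 in E18.5 controls. Hspa1a, an inducible heat shock protein, stood at 1.28, 4.87 and 2.41 CPM in P0 knockouts, against 408, 1.98 and 1.37 in E18.5 knockouts, and at 0.851, 1.92 and 0.57 in P0 controls, against 174, 1.49 and 2.06 in E18.5 controls. In each genotype E18.5 replicate 1-2 was far above the other samples, and the remaining E18.5 samples lay below P0 for Fos. The log2 fold change of Fos was -2.87 (SE 1.70) with all samples and 3.86 without replicate 1-2, and that of Hspa1a was -5.55 (SE 1.91) and 0.74. Over the 22 of 25 immediate early genes tested the median was -1.37 with all samples, -1.93 without replicate 3 and 1.02 without replicate 1-2. Without replicate 1-2, edgeR called 5 of them higher at P0 (0.196% of all genes) and 0 lower (2.23%). Over 14 heat shock genes the median was -0.63 with all samples and 0.10 without replicate 1-2.

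Genes of amino acid stress were lower at P0 in part. Of 20 tested, 18 had a negative log2 fold change, and 7 were lower (7.69% of all genes) with 0 higher (5.08%) at an unadjusted p under 0.05. Asns, which makes asparagine, stood at 32.3, 34 and 46 CPM in P0 knockouts, against 52.5, 74.1 and 92.3 in E18.5 knockouts, and Chac1, which breaks down glutathione, at 0.367, 0.479 and 0.401 CPM in P0 knockouts, against 3.09, 1.22 and 1.5 in E18.5 knockouts. As in Trib3, no P0 sample reached an E18.5 sample, and without replicate 1-2 the log2 fold changes were -1.21 and -1.73. A gene as low at P0 as Chac1 could pass the filter on low counts through the E18.5 samples alone. Chac1 therefore supports nothing beyond its values. Over the whole list the median was -0.55 with all samples, -0.74 without replicate 3 and -0.12 without replicate 1-2. At an unadjusted p under 0.05, 12 were lower (8.83% of all genes) and 0 higher (4.83%) without replicate 3. Without replicate 1-2, 8 were lower (9.19%) and 1 higher (7.69%), and edgeR's adjusted test called 3 lower (2.23%). Of 28 hypoxia and glycolysis genes, 25 had a negative log2 fold change, and 9 were lower (7.69% of all genes) with 0 higher (5.08%) at an unadjusted p under 0.05. Without replicate 1-2, 4 were lower (9.19% of all genes) and 2 higher (7.69%), and the median log2 fold change was -0.23, against -0.35 with all samples. Slc2a1, the glucose transporter of red cells and many other cells, stood at 33.5, 56.5 and 39 CPM in P0 knockouts, against 147, 127 and 77.7 in E18.5 knockouts, and at 24.4, 59.3 and 31 in P0 controls, against 108, 70.4 and 55 in E18.5 controls. Its log2 fold change was -1.47 (SE 0.26) in knockouts and -1.07 in controls. Imprinted genes of fetal growth had a median of -0.16 over 22 tested in knockouts and -0.51 in controls. Zim1, an imprinted zinc finger gene, stood at 151, 175 and 132 CPM in P0 knockouts, against 258, 226 and 248 in E18.5 knockouts, and at 169, 144 and 93.8 in P0 controls, against 239, 289 and 293 in E18.5 controls, and its ages overlapped in neither genotype. Magel2, another imprinted gene, had log2 fold changes of -0.91 (SE 0.27) in knockouts and -1.68 in controls.

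**Figure D4:**
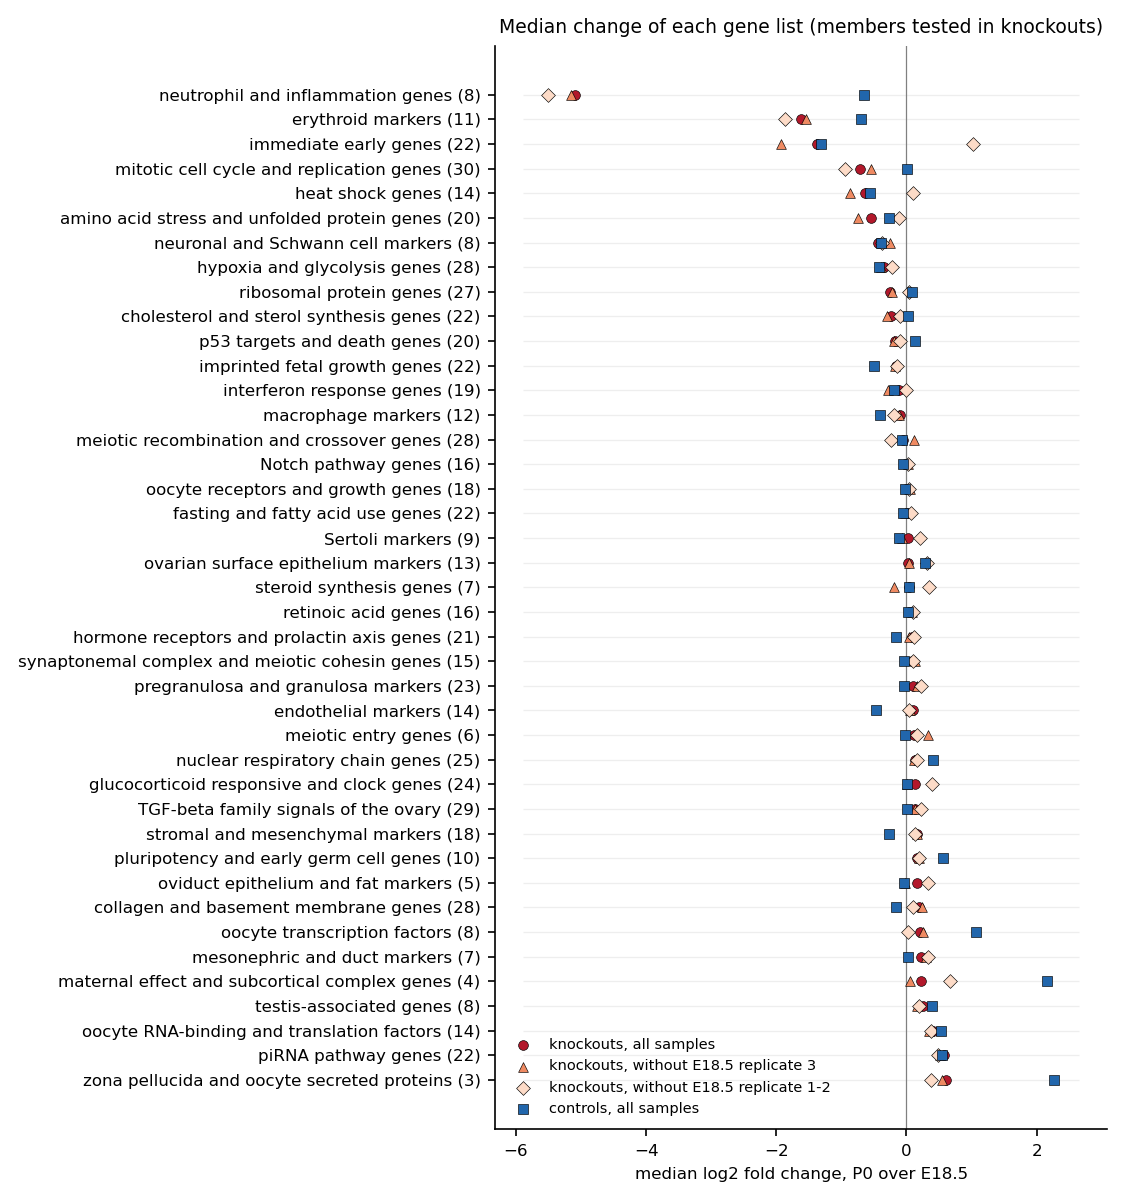
Median log2 fold change, P0 over E18.5, of each gene list with at least 3 tested members in knockouts (number tested in brackets), with all knockout samples, without E18.5 replicate 3, without E18.5 replicate 1-2, and in controls over the members tested there. Immediate early genes change sign without replicate 1-2, while the piRNA and erythroid medians keep their sign in all 4. The neutrophil median covers only the 8 of 16 members that passed the filter on low counts.

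The comparison of knockouts with controls shares no samples between the genotypes. In controls, edgeR called 0 of 17450 genes (0% called), 1866 were higher (10.7%) and 1597 lower (9.15%) at an unadjusted p under 0.05, and DESeq2 called 860 (4.93%), 465 higher (2.66%) and 395 lower (2.26%). Among 16691 genes tested in both, DESeq2 called 364 in knockouts and 836 in controls. It called 72 in the same direction in both, 25 higher and 47 lower, which are 19.8% of the knockout calls and 8.61% of the control calls. Without E18.5 knockout replicate 3 it called 68 of 16918 in the same direction, 25.9% of 263 knockout calls and 8.10% of 840 control calls. At an unadjusted p under 0.05 by edgeR, 822 genes had the same direction in both, 38.7% of those in knockouts and 25.0% of those in controls.

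The difference itself, the change in knockouts minus that in controls, was called for 0 of 18379 genes by edgeR (0% called), with 977 genes (5.32%) at an unadjusted p under 0.05, 316 higher (1.72%) and 661 lower (3.60%). DESeq2 called 3 (0.0163%), with Tbx18 higher (0.00544%) and Tspan33 and Tmem14c lower (0.0109%). Tmem14c (ENSMUSG00000021361, chromosome 13, 41016250 to 41022575), a mitochondrial membrane protein used in haem synthesis, stood at 29.6, 27 and 28.2 CPM in P0 knockouts, against 35.1, 47.3 and 53.5 in E18.5 knockouts, and at 94.3, 113 and 182 in P0 controls, against 59.2, 23.7 and 61 in E18.5 controls. It was lower at P0 in knockouts and higher at P0 in controls, with no overlap in either, and the difference was -2.07 (SE 0.45) on the log2 scale with an adjusted p of 0.913 by edgeR. Tspan33, a tetraspanin of blood cells, stood at 17.1, 17.3 and 19.5 CPM in P0 knockouts, against 30.8, 76.2 and 111 in E18.5 knockouts, and at 39.4, 32.1 and 60.7 in P0 controls, against 44.6, 30.5 and 28.1 in E18.5 controls. The difference for Tbx18 was 3.26 (SE 0.64) and for Ebf3, a transcription factor, 1.30 (SE 0.29), both positive, and Ebf3 had log2 fold changes of 0.17 in knockouts and -1.11 in controls. It was -1.03 (SE 0.23) for Apeh, a peptidase, and -2.20 (SE 0.51) for Ube2c, which marks mitotic proteins for destruction, both negative. All 4 had an adjusted p of 0.913 by edgeR. Of 30 cell cycle genes 13 had a lower and 1 a higher change in knockouts than in controls at an unadjusted p under 0.05, and of 22 piRNA genes 1 had a lower and 0 a higher one. Of 11 red blood cell genes, too, only 1 had a lower and 0 a higher one. The difference had a median of -0.65 over the cell cycle genes, 0.04 over the piRNA genes and -1.09 over the red blood cell genes, against 0.01 over all genes.

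**Figure D5:**
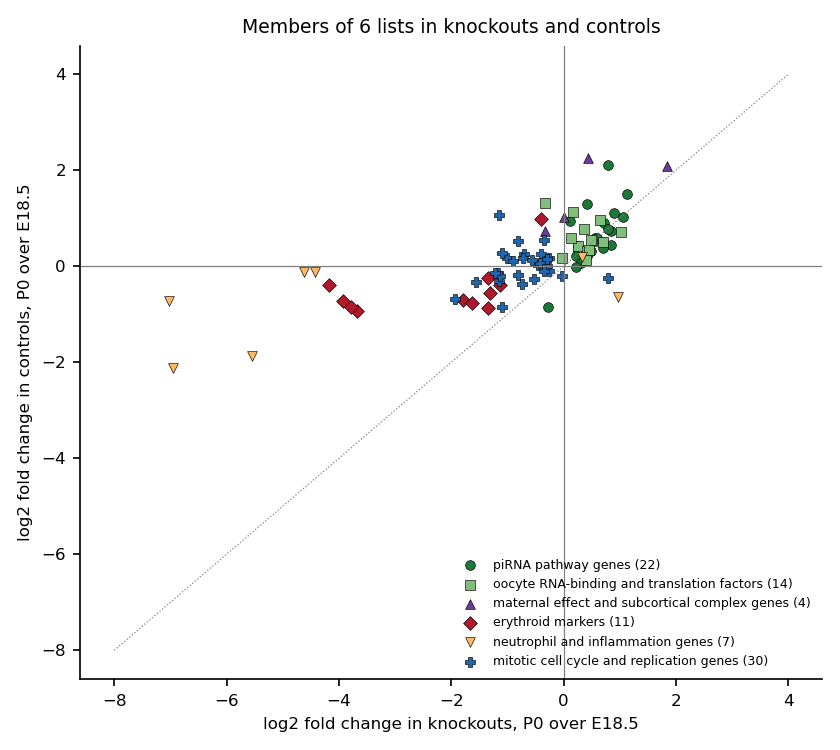
Log2 fold change, P0 over E18.5, in knockouts (x axis) and controls (y axis) for members of 6 gene lists tested in both; the dotted line marks equal change. Most piRNA genes lie above zero on both axes near the line, while most red blood cell, neutrophil and cell cycle genes lie left of zero in knockouts and nearer to zero in controls; Mpo and Elane are the 2 neutrophil genes right of zero.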

How the data were processed

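Whole ovaries were sequenced as bulk RNA. The submitters' processing notes name cutadapt, HISAT2 and the build GRCm38.p5. The authors counted reads per gene with featureCounts 1.6.0 on GENCODE M12, per the file headers, with no strand setting, so overlapping and antisense genes cannot be told apart. The deposited values are raw counts of 49585 genes per library, of which 49326 have a symbol in GENCODE M21. Groups follow the library names in the count tables.

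Libraries 1 and 2 of each E18.5 group were summed. Counts were filtered (filterByExpr, minimum count 10, minimum total 15), scaled by TMM and tested with edgeR 4.0.16 in R 4.3.3 (quasi-likelihood test, Benjamini-Hochberg adjusted p under 0.05), within knockouts, within controls, and for the difference between the 2 changes. DESeq2 1.42.0, other scaling, no filter, other groupings and each sample left out were alternatives. The fits were tested on simulated data. CPM values are for display. With 3 samples a group, low genes are limited by counting error.

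Named genes were, per direction, the 10 with the smallest unadjusted p among genes without overlap between ages and with an average of at least 1 CPM, up to 4 members of each of 42 lists with the smallest p, the 10 smallest unadjusted p in each direction of the difference, and a fixed set of oocyte genes. No gene passed edgeR's adjusted test in either genotype, so none could be named for passing in both. Alas2, Elane, Epb42, Fos, Mpo, Piwil2, S100a8, S100a9, Tdrd1, Top2a, the embryonic globins and some members that only DESeq2 called were named after their values were seen. The members and lists were chosen with earlier results of these data known. Of 810 list entries, 801 matched a gene.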

Additional observations from a re-analysis of the deposited data

How the results depend on the processing

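No paired analysis was possible because the knockout samples of the 2 ages carry only numbers in deposit order and share no animals. Against 0 genes called in knockouts, DESeq2 called 371, no filter on low counts 462, each library as its own sample 2, groups by title 3, libraries with agreeing labels 269, and 1 model of all Figla samples 1. Leaving out 1 sample gave 0 to 420, with 420 without E18.5 replicate 1-2, 10 without E18.5 replicate 4 and 0 without each of the others. DESeq2, added after seeing the data, called 286 without E18.5 replicate 3 and 762 without replicate 1-2. Against 0 in controls, DESeq2 called 860, no filter 1480, each library 7, titles 987 and agreeing labels 975. Against 0 for the difference, DESeq2 called 3, no filter 63, titles 208 and agreeing labels 148. Of list members, 0 were called in knockouts, against 45 by DESeq2, 69 with no filter, 1 with each library, 3 by title and 35 with agreeing labels, 0 to 53 with 1 sample left out (53 without replicate 1-2, 2 without replicate 4), and by DESeq2 22 without replicate 3 and 86 without replicate 1-2.

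Some log2 fold changes in knockouts changed sign. By title they were -0.0395 for Ebf3, 4.03 for Fos, 0.53 for Hspa1a, 1.32 for Kit, -0.18 for Mpo, 0.71 for Tmem14c and 0.27 for Ube2c. With agreeing labels they were 4.05 for Fos, 1.08 for Hspa1a, 0.30 for Kit, 0.0666 for Kitl, -0.56 for Mpo and -0.0412 for Sohlh2. With DESeq2 without replicate 1-2 they were 3.87 for Fos, 0.73 for Hspa1a and 0.12 for Kit. With 1 sample left out, Fos ran from -3.45 to 3.86, Hspa1a from -6.22 to 0.74, Kit from -0.39 to 0.18 and Kitl from -0.19 to 0.0161. The cause was not tested.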

Other observations

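Genes of the nuclear-encoded respiratory chain, which makes ATP in mitochondria, had 0 of 25 members higher or lower at an unadjusted p under 0.05 by edgeR in knockouts, where 5.08% of all genes were higher and 7.69% lower, with a median log2 fold change of 0.13. Without E18.5 replicate 3, 4 were higher (4.83% of all genes) and 0 lower. In controls 15 were higher (10.7% of all genes) and 0 lower, with a median of 0.41, and the difference had 0 higher and 6 lower members (3.60% of all genes) at an unadjusted p under 0.05. Endothelial markers, which line vessels, had 0 higher and 0 lower of 14 in knockouts, against 0 higher and 5 lower (9.15% of all genes) in controls. Of the 14, 3 had a higher change in knockouts than in controls at an unadjusted p under 0.05 (1.72% of all genes). Of 22 genes of cholesterol and sterol synthesis, 4 were lower (7.69% of all genes) and 0 higher in knockouts, with a median of -0.24, against 0.03 in controls. Without E18.5 replicate 1-2, 1 was lower (9.19% of all genes) and 1 higher (7.69%), with a median of -0.11. None of 27 ribosomal protein genes had an unadjusted p under 0.05 in knockouts, where their median was -0.25 with all samples and 0.04 without E18.5 replicate 1-2.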
